A study of Mus musculus with 12 samples.

Results

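Proteins that enter the secretory pathway are folded and checked in the endoplasmic reticulum, and 5 mouse genes of that machinery are described here together with the gene that lies against each of them on the opposite DNA strand. The 10 genes form 5 pairs, named by symbol rather than by a threshold on their values: Pdia6 with Atp6v1c2, Ppib with Snx22, Manf with Dcaf1, Syvn1 with Mrpl49, and Derl2 with Mis12. They are 10 of the 24552 gene symbols counted, and all 10 were found.

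In the endoplasmic reticulum, foldases and chaperones help new proteins reach their shape, and chains that fail are moved back to the cytosol and degraded, a route called ER-associated degradation. When unfolded chains build up, sensors in the membrane start the unfolded protein response, whose transcription factors raise many folding and degradation genes. One branch of that response also feeds the integrated stress response, which lowers protein synthesis, and ISRIB is a small molecule that counters it. Macrophages that make cytokines after an inflammatory stimulus load this pathway with secreted proteins.

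Polyadenylated RNA came from BMDM, mouse bone marrow-derived macrophages, which are cells grown from marrow for 6 days with the growth factor M-CSF at 10 ng/ml. All 12 samples belonged to 4 groups of 3 biological replicates. The vehicle M1 and ISRIB M1 groups received vehicle (DMSO) or ISRIB at 50 nM for 1 h and then LPS at 10 ng/ml with IFN-γ at 25 ng/ml for 16 h, still with vehicle or ISRIB. The vehicle M0 and ISRIB M0 groups are named as vehicle-treated or ISRIB-treated M0 cells, and what they received during those hours is not spelled out in the labels. Strain, sex and age are not given in the labels, nor is it said whether replicates came from separate animals, so p-values measure the spread between these samples.

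The libraries held 439976 to 514037 counts each, so that a single count was worth 1.79 to 2.57 CPM, the unit of counts scaled to a common library size by the TMM method. A count of 0 allows up to 3 counts, or 0.000584% to 0.000682% of a library, and such limits cover counting error only. The submitters' processing notes name HTSeq, the kit keeps strand, and the strand setting of the counting is not given in the sources used here. Of the 24142 symbols matched to the annotation, 5820 (24.1%) have an exon that faces an exon on the other strand, and these held 92.5% of the counts on matched symbols, with a range of 91.5% to 93.2% over libraries. Each value below is therefore a count given to a symbol, and it is not known, for any symbol with or without an overlap, from which strand the reads came. A low count on a symbol is thus not a measure of how much of its transcript the cells held. All 9 macrophage markers examined had counts in some library, summing to 287.9 to 832.1 CPM per library. By median count Lyz2, Csf1r, Cd68, Mertk and Mrc1 were lower in M1 than in M0 libraries, and Adgre1, Itgam, Fcgr1 and Cd14 higher. Mrc1 was at 0 in the M1 libraries. Neutrophil (3 of 6), B-cell (1 of 5) and fibroblast (1 of 5) markers with any count summed to at most 24.3 CPM. The 4 T-cell and NK-cell markers and 3 erythroid markers were at 0. Of 4 dendritic cell markers, Flt3 and Zbtb46 were at 0, and Xcr1 had 6 to 19 counts in M0 libraries and 325 to 434 in M1 libraries. The part of these cells' markers in the results below was not tested, and in bulk RNA fewer cells of a type and less RNA per cell cannot be told apart.

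The arrangement of the pairs is shown in the exon map. Coordinates are those of GENCODE M21 on GRCm38, which is the mm10 build named by the submitters. Pdia6 (chr12:17266545-17284770, + strand) and Atp6v1c2 (chr12:17284721-17329359, - strand) meet tail to tail and share 50 exon bases, untranslated in both, through 1 of 5 annotated Pdia6 transcripts. Ppib (chr9:66060222-66066623, + strand) and Snx22 (chr9:66065176-66069719, - strand) also meet tail to tail, but share 825 exon bases in 2 blocks, which is 28.5% of the exon bases of Snx22 and 25.0% of those of Ppib. The shared bases lie in the untranslated region of Snx22, include 305 coding bases of Ppib, and touch both Ppib transcripts.

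Syvn1 (chr19:6046576-6053712, + strand) and Mrpl49 (chr19:6053622-6057785, - strand) share 91 bases of untranslated exon at their tails, in 6 of 8 Syvn1 transcripts. Derl2 (chr11:71007164-71019841, - strand) and Mis12 (chr11:71019611-71027371, + strand) are the only head-to-head pair of these 5 and share 231 bases of untranslated exon at their starts, through 1 of 7 Derl2 transcripts. Manf (chr9:106838312-106891979, - strand) and Dcaf1 (chr9:106821874-106880992, + strand) share 146 exon bases, coding in Dcaf1 and untranslated in Manf, through 1 of 7 Manf transcripts that runs far beyond the others. In the RefSeq annotation, whose Manf model is shorter, these genes do not overlap and lie 7760 bases apart, whereas the spans of the other pairs overlap there too. Dcaf1 also has exon bases opposite Rbm15b, and Manf has some opposite 4930524O07Rik.

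**Figure D1:**
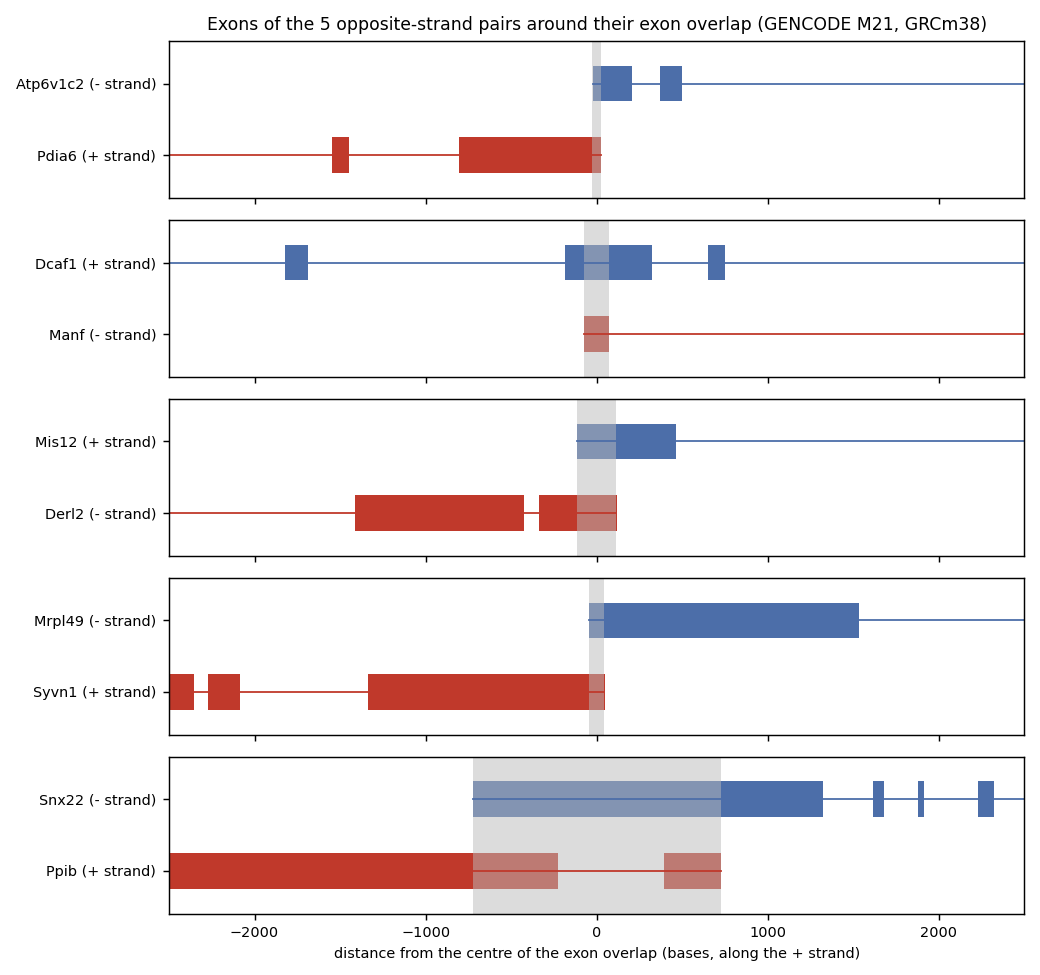
Exons (boxes) and introns (lines) of the 5 pairs within 2500 bases of the centre of their exon overlap, along the + strand. Folding and degradation genes are red, neighbours blue, and grey marks the span from the first to the last shared exon base. The shared stretch of Ppib and Snx22 is the longest, at 825 exon bases, and that of Pdia6 and Atp6v1c2 the shortest, at 50.

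Promoters of the members were searched because the unfolded protein response acts through a known element, ERSE, spelled CCAAT and CCACG with 9 bases between them, to which the factors ATF6 and NF-Y bind. In the 250 bases before the RefSeq start on GRCm38.p6, on both strands, 2 members had a full match, Pdia6 and Syvn1, which are among the folding and degradation genes. The match ended 79 bases before the start of Pdia6 and 25 bases before that of Syvn1. They are shown from 100 bases before the match to 25 bases after it, with the fixed letters of the element in capitals. The Pdia6 window is chr12:17266391-17266534 and the Syvn1 window chr19:6046432-6046575, both on the + strand.
Pdia6: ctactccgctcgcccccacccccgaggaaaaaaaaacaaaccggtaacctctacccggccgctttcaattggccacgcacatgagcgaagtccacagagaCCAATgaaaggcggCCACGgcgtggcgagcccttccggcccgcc
Syvn1: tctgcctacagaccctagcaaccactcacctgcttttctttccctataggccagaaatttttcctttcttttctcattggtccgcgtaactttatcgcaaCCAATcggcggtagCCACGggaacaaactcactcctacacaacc

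The element was present in 37 of 32851 promoter entries of this length, or 0.113%. The other members with an entry (Atp6v1c2, Dcaf1, Mis12, Derl2, Mrpl49, Snx22 and Ppib) had no full match in these windows. Neither the ERSE-II element, ATTGG and CCACG with 1 base between them, found in 0.0304% of entries, nor TGACGTGG, a core of the XBP1-bound element found in 0.563%, occurred in a member's window. These are matches of letters and not measured binding. The counts of both genes are given next, Syvn1 being well counted and Pdia6 having few counts.

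The levels of the 10 genes lay far apart. Per kilobase of exon, Snx22 had the highest mean over the 12 libraries, at 5786 CPM per kb, followed by Mrpl49 at 42.4, Derl2 at 21.2, Syvn1 at 17.3 and Atp6v1c2 at 12.4 CPM per kb. Mis12 (7.39 CPM per kb) and Dcaf1 (4.54 CPM per kb) were lower, and Pdia6 (1.73 CPM per kb), Ppib (1.56 CPM per kb) and Manf (1.51 CPM per kb) were lowest, at means of 2.83, 2.25 and 2.58 counts per library. The last 3 did not pass the filter on low counts and 7 members were tested. Thus 3 of the 5 folding and degradation symbols averaged fewer than 3 counts per library, and in 4 of the 5 pairs the neighbour had more counts per kb, the exception being Derl2 with Mis12. The libraries of Pdia6, Ppib and Manf overlapped, so their order is not resolved. The plot of CPM by sample shows each library.

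**Figure D2:**
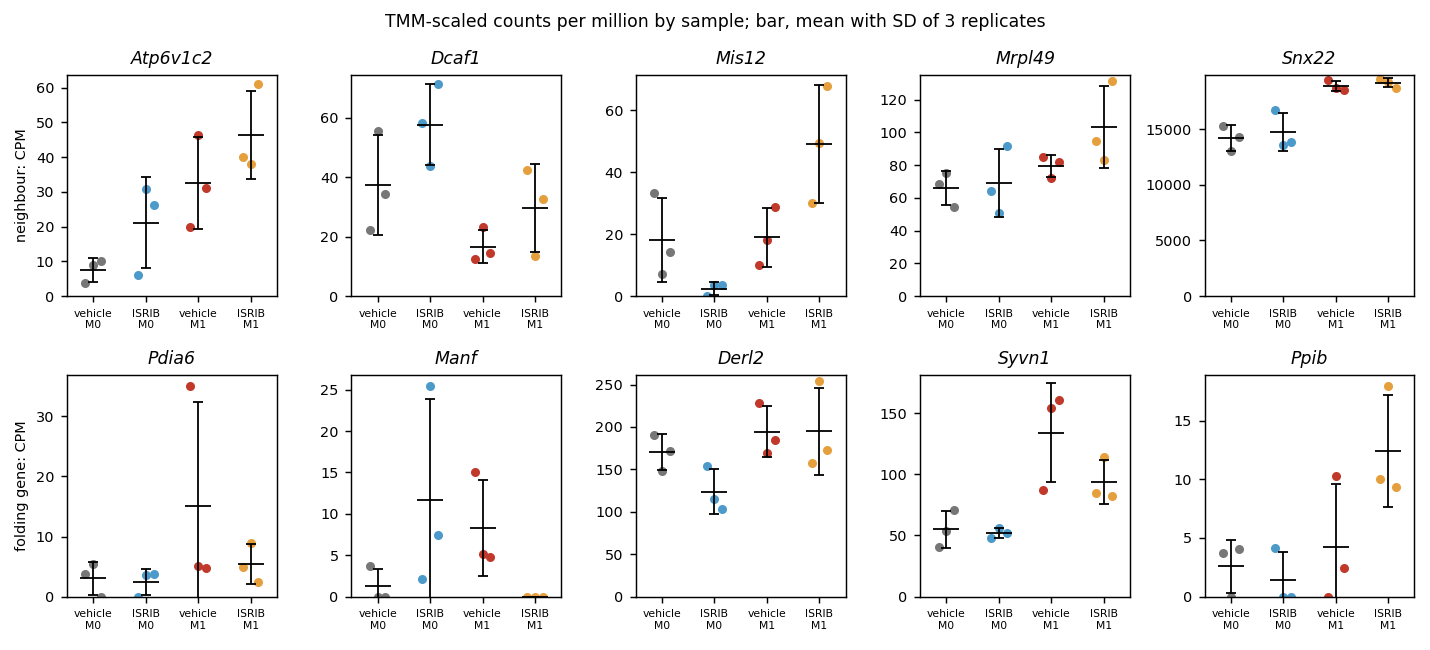
TMM-scaled CPM of each member by sample, neighbours above and their folding or degradation genes below, on linear axes that start at 0 and differ between panels. Points are replicates 1 to 3 from left to right, and bars give the mean with the SD of 3 replicates. Snx22, Syvn1 and Atp6v1c2 are higher in every vehicle M1 sample than in every vehicle M0 sample. The vehicle groups do not overlap in 52.7% of all tested genes.

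Between vehicle M0 and vehicle M1 cells, counts on Syvn1, the ubiquitin ligase of ER-associated degradation also called Hrd1, rose 2.44-fold, those on Atp6v1c2, a subunit of the proton pump of acidic organelles, rose 4.18-fold, and those on Snx22, a sorting nexin of endosomes, rose 1.33-fold. The other 4 tested members did not pass the test. Between ISRIB M0 and ISRIB M1 cells, counts rose on Mis12, a subunit of the kinetochore, on Derl2, a membrane protein that helps move chains out of the reticulum for degradation, and on Snx22. In each comparison 3 of 7 tested members were higher in M1 and 0 lower, beside 44.8% of all 2356 tested genes called in either direction in each, 24.3% higher with vehicle and 23.9% higher with ISRIB. With so many genes called, the members' count is near the background. Atp6v1c2 and Mis12 also passed the filter on low counts through their M1 counts, and Dcaf1 through its M0 counts. The median log2 fold change of the 7 was 0.26 with vehicle and 0.66 with ISRIB, against 0.01 and -0.01 over all tested genes. The M0 and M1 libraries did not overlap in 52.7% of all tested genes with vehicle and 55.2% with ISRIB. A member whose groups lie apart below is therefore like most tested genes in this.

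These directions are relative to TMM scaling. Scaled by library totals alone, a choice added after seeing the data, the median log2 fold change over all tested genes became -0.29 with vehicle and -0.30 with ISRIB, and higher genes fell from 54.2% to 41.3% of the calls with vehicle and from 53.4% to 39.4% with ISRIB. Members whose call or direction that scaling alters are named below.

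Pdia6 encodes a protein disulfide isomerase, which forms and rearranges disulfide bonds. It had 2, 3 and 0 counts in the vehicle M0 replicates, 14, 2 and 2 in vehicle M1, 0, 2 and 2 in ISRIB M0, and 2, 4 and 1 in ISRIB M1. A single vehicle M1 library, replicate 1, stood apart, and all other libraries were at 4 counts or fewer. Its neighbour Atp6v1c2 had 2, 5 and 5 counts in vehicle M0, 8, 18 and 13 in vehicle M1, 3, 17 and 14 in ISRIB M0, and 16, 17 and 26 in ISRIB M1. The vehicle M1 libraries were above all vehicle M0 libraries, and ISRIB M0 replicate 1 was low beside its group. In CPM the means of Atp6v1c2 were 7.60 ± 3.42 (SD, n = 3) for vehicle M0 and 32.5 ± 13.2 for vehicle M1, a log2 fold change of 2.06 ± 0.72 (SE; adjusted p = 0.0206, edgeR quasi-likelihood, Benjamini-Hochberg). The call was lost without a filter on low counts (1.99, adjusted p = 0.0969), without vehicle M0 replicate 1 (1.74, adjusted p = 0.0787) and without vehicle M1 replicate 2 (1.73, adjusted p = 0.0889). Atp6v1c2 reached the filter's minimum of 10 counts in 2 M0 and 5 M1 libraries. It was thus tested through its M1 counts, so these p-values are a description. With ISRIB the means were 21.1 ± 13.1 in M0 and 46.3 ± 12.6 in M1, and the log2 fold change of 1.11 (95% interval -0.20 to 2.42) did not pass the test (adjusted p = 0.161).

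Ppib encodes cyclophilin B, a prolyl isomerase that turns proline bonds in collagens and other secreted chains. It had 2, 0 and 2 counts in vehicle M0, 0, 4 and 1 in vehicle M1, 2, 0 and 0 in ISRIB M0, and 4, 8 and 4 in ISRIB M1. Only ISRIB M1 replicate 2 exceeded 4 counts, and every ISRIB M1 library had at least 4. Against this, Snx22 had 8243, 7264 and 7062 counts in vehicle M0, 7734, 7270 and 7695 in vehicle M1, 8031, 7465 and 7398 in ISRIB M0, and 7804, 8568 and 7985 in ISRIB M1. In raw counts the Snx22 groups overlapped. It ranked 8 of all 24552 symbols by mean count and took 1.46% to 1.75% of a library, while Ppib held 0.0292% of the counts of the pair.

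After TMM scaling, Snx22 stood at 14194 ± 1142 CPM (SD, n = 3) for vehicle M0, 18850 ± 458 for vehicle M1, 14713 ± 1729 for ISRIB M0 and 19147 ± 411 for ISRIB M1. Both M1 groups then lay above both M0 groups without overlap. The log2 fold change from M0 to M1 was 0.41 ± 0.09 (SE; adjusted p = 0.000684) with vehicle and 0.38 ± 0.09 (adjusted p = 0.00145) with ISRIB in edgeR's quasi-likelihood test. Scaled by library totals alone, the values were 0.11 (adjusted p = 0.221) and 0.09 (adjusted p = 0.290), so both calls rest on TMM scaling.

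Manf encodes a small secreted factor that the unfolded protein response induces and that binds the chaperone BiP. It had 2, 0 and 0 counts in vehicle M0, 6, 2 and 2 in vehicle M1, 1, 14 and 4 in ISRIB M0, and 0, 0 and 0 in ISRIB M1. No ISRIB M1 library held a count, and ISRIB M0 replicate 2 alone held 14. Fitted without the filter on low counts, the M1 against M0 difference with ISRIB had an adjusted p of 0.0777, and for Pdia6, Ppib and Manf no comparison passed the test in that fit.

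Dcaf1, which encodes a substrate receptor of a cullin ubiquitin ligase, had 12, 31 and 17 counts in vehicle M0, 5, 9 and 6 in vehicle M1, 28, 24 and 38 in ISRIB M0, and 17, 6 and 14 in ISRIB M1. The ISRIB M1 libraries were all below the ISRIB M0 libraries, while the vehicle groups overlapped once scaled. The CPM means were 37.4 ± 16.8 (SD, n = 3) for vehicle M0, 16.7 ± 5.66 for vehicle M1, 57.7 ± 13.8 for ISRIB M0 and 29.6 ± 14.8 for ISRIB M1. The log2 fold changes from M0 to M1 were -1.16 ± 0.59 (SE; adjusted p = 0.113) with vehicle and -0.96 ± 0.54 (adjusted p = 0.155) with ISRIB and did not pass edgeR's test. Scaled by library totals alone, the vehicle value was -1.47 and passed (adjusted p = 0.0412). Dcaf1 reached the filter's minimum of 10 counts in 6 M0 and 2 M1 libraries. It was thus tested through its M0 counts, so these p-values are a description.

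Syvn1 had 22, 30 and 35 counts in vehicle M0, 35, 60 and 67 in vehicle M1, 23, 31 and 28 in ISRIB M0, and 34, 51 and 35 in ISRIB M1. In CPM the M1 libraries lay above the M0 libraries both with vehicle and with ISRIB. The means were 55.1 ± 15.1 CPM (SD, n = 3) for vehicle M0, 134.3 ± 40.6 for vehicle M1, 52.2 ± 4.28 for ISRIB M0 and 93.8 ± 18.0 for ISRIB M1. With vehicle the log2 fold change was 1.28 ± 0.35 (SE; adjusted p = 0.00363, edgeR quasi-likelihood), and it stayed past the threshold with library totals alone (0.99, adjusted p = 0.0259). Leaving out each compared library in turn gave 1.11 to 1.51 and kept the call. With ISRIB the log2 fold change of 0.84 ± 0.35 just missed the threshold (adjusted p = 0.0541), and it passed with DESeq2 size factors (adjusted p = 0.0426), while with library totals alone it was 0.55 (adjusted p = 0.216). The difference between the vehicle and ISRIB values, -0.44 (95% interval -1.46 to 0.57), was not past the test, so a difference in the response of Syvn1 is not shown.

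Mrpl49, the neighbour of Syvn1 and a protein of the mitochondrial ribosome, had 37, 42 and 27 counts in vehicle M0, 34, 28 and 34 in vehicle M1, 31, 28 and 49 in ISRIB M0, and 38, 37 and 56 in ISRIB M1. The groups overlapped in both comparisons once scaled. The CPM means were 66.1 ± 10.4 (SD, n = 3), 79.6 ± 6.84, 69.1 ± 20.8 and 103.1 ± 25.0 in the same order of groups. The log2 fold changes from M0 to M1, 0.26 (95% interval -0.45 to 0.98) with vehicle and 0.58 (-0.13 to 1.28) with ISRIB, did not pass the test, and with library totals alone the vehicle value was -0.04.

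Derl2 had 103, 83 and 85 counts in vehicle M0, 91, 66 and 77 in vehicle M1, 74, 63 and 55 in ISRIB M0, and 63, 113 and 74 in ISRIB M1. In CPM the ISRIB M0 libraries lay below all ISRIB M1 libraries, whereas the vehicle groups overlapped. The means were 170.5 ± 21.2 CPM (SD, n = 3) for vehicle M0, 194.2 ± 30.2 for vehicle M1, 123.8 ± 26.7 for ISRIB M0 and 194.8 ± 51.6 for ISRIB M1. With ISRIB the log2 fold change from M0 to M1 was 0.66 ± 0.25 (SE; adjusted p = 0.0375, edgeR quasi-likelihood). That call was lost without a filter on low counts (0.59, adjusted p = 0.245) and when only the groups compared were fitted (0.66, adjusted p = 0.0536). It was also lost without ISRIB M0 replicate 2 (0.61, adjusted p = 0.0970), without ISRIB M0 replicate 3 (0.55, adjusted p = 0.131), without ISRIB M1 replicate 2 (0.42, adjusted p = 0.236) and with library totals alone (0.38, adjusted p = 0.231). With vehicle the log2 fold change was 0.19 (95% interval -0.33 to 0.70) under TMM and -0.11 with library totals alone, neither past the threshold.

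Mis12 had 18, 4 and 7 counts in vehicle M0, 4, 7 and 12 in vehicle M1, 0, 2 and 2 in ISRIB M0, and 12, 22 and 29 in ISRIB M1. No ISRIB M0 library exceeded 2 counts and no ISRIB M1 library was under 12, while the vehicle groups overlapped. Summed over replicates, 63 counts in ISRIB M1 stood against 4 in ISRIB M0, which after scaling is a ratio of 19.4 (exact 95% counting interval 7.20 to 73.3). The fitted log2 fold change was 4.14 ± 0.91 (SE; adjusted p = 0.000554, edgeR quasi-likelihood). It was 3.87 (adjusted p = 0.00126) with library totals alone and 3.65 to 4.51 when each compared library was left out. Mis12 reached the filter's minimum of 10 counts in 1 M0 and 4 M1 libraries. It was thus tested through its M1 counts, so these p-values are a description. With vehicle the log2 fold change was 0.06 (95% interval -1.51 to 1.63), and -0.22 with library totals alone.

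**Figure D3:**
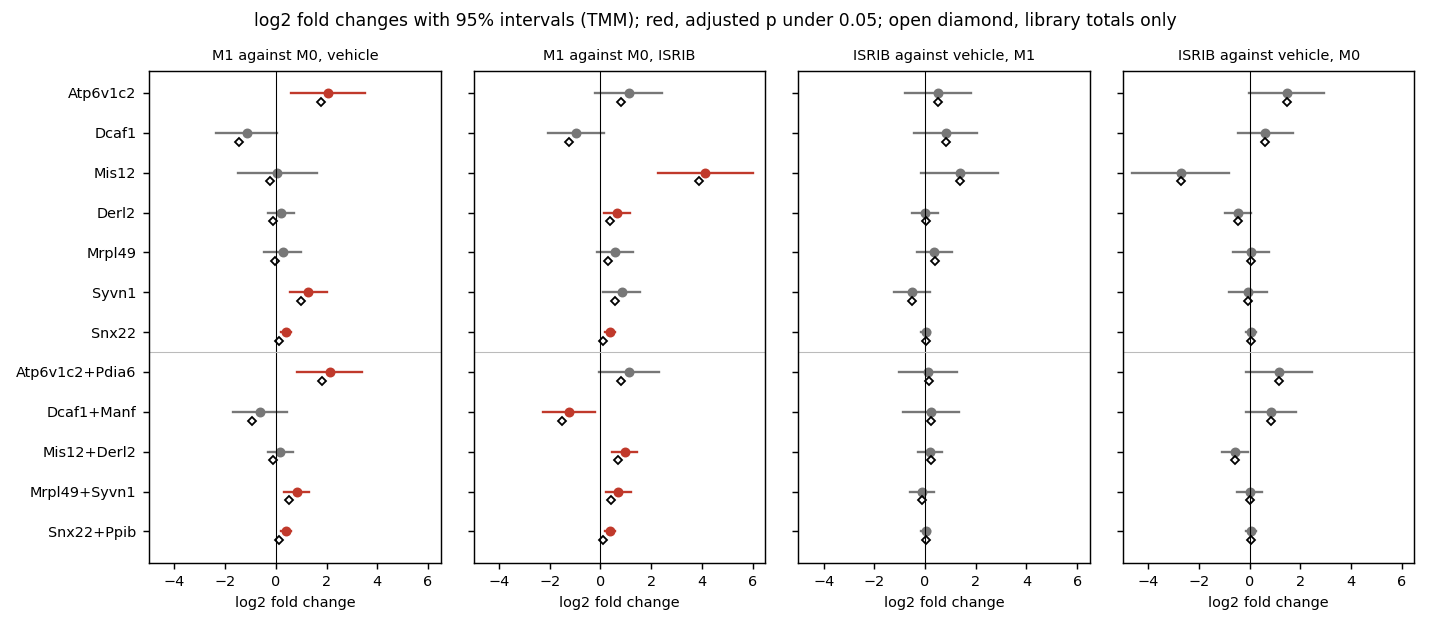
log2 fold changes of the 7 tested members (above the line) and of the 5 pair sums (below it) in 4 comparisons, with 95% intervals under TMM scaling. Red marks an adjusted p under 0.05, and open diamonds give the value with library totals alone. Mis12 from ISRIB M0 to ISRIB M1 is the farthest from 0, at 4.14, and no red point appears in the comparisons of ISRIB with vehicle.

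Because a read from a shared stretch could carry either symbol, the counts of each pair were also added up and tested. Outside the pair of Ppib and Snx22 that stretch is only 1.3% to 7.7% of a gene's exon bases. Adding the counts does not settle from which strand reads on the other exon bases came. With vehicle, 3 of the 5 sums were higher in M1 and 0 lower, beside 44.8% of 2354 rows called in either direction, and with ISRIB 3 were higher and 1 lower, beside 44.9%. The sum of Syvn1 and Mrpl49 rose by a log2 fold change of 0.82 (adjusted p = 0.00661) with vehicle and 0.70 (adjusted p = 0.0202) with ISRIB in edgeR's quasi-likelihood test. With library totals alone these were 0.52 (adjusted p = 0.0893) and 0.41 (adjusted p = 0.180), and the ISRIB call was also lost without ISRIB M0 replicate 1 or 2 or ISRIB M1 replicate 3 (adjusted p = 0.0537, 0.0716 and 0.0658).

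The sum of Pdia6 and Atp6v1c2 rose with vehicle by a log2 fold change of 2.13 (adjusted p = 0.00680, edgeR's quasi-likelihood test). It kept its call when any compared library was left out. With ISRIB its log2 fold change was 1.11 (adjusted p = 0.121). This sum held 4 to 8 counts in vehicle M0 and 3 to 19 in ISRIB M0, against 15 to 22 and 18 to 27 in M1. It thus passed the filter on low counts through its M1 counts, so its p-values are a description. The sum of Derl2 and Mis12 rose with ISRIB by 0.95 (adjusted p = 0.00238) and kept its call without any compared library, whereas with vehicle it was 0.18 (adjusted p = 0.576). The sum of Ppib and Snx22, nearly all Snx22, gave 0.41 and 0.38 like Snx22 itself. The sum of Manf and Dcaf1 fell with ISRIB by 1.23 on the log2 scale (adjusted p = 0.0486), a call that was lost in 5 of the 6 fits without a compared library (adjusted p = 0.0682 to 0.192), and with vehicle it was -0.63 (adjusted p = 0.351).

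How the counts of a pair split between its symbols was described without a test. Over all libraries the folding or degradation gene held 88.8% of the pair's counts for Derl2, 50.6% for Syvn1, 19.1% for Pdia6, 13.0% for Manf and 0.0292% for Ppib. The share of Syvn1 was 45.1% ± 10.0 (SD, n = 3) for vehicle M0, 61.7% ± 9.59 for vehicle M1, 43.8% ± 8.16 for ISRIB M0 and 47.9% ± 9.76 for ISRIB M1. The share of Derl2 was 91.0% ± 5.28 for vehicle M0, 90.9% ± 4.66 for vehicle M1, 97.8% ± 1.91 for ISRIB M0 and 79.8% ± 6.93 for ISRIB M1. With all M0 libraries set against all M1 libraries, the ranges overlapped in each of the 5 pairs. Within ISRIB, however, the Derl2 share was 96.5% to 100% in M0 and 71.8% to 84.0% in M1, without overlap.

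**Figure D4:**
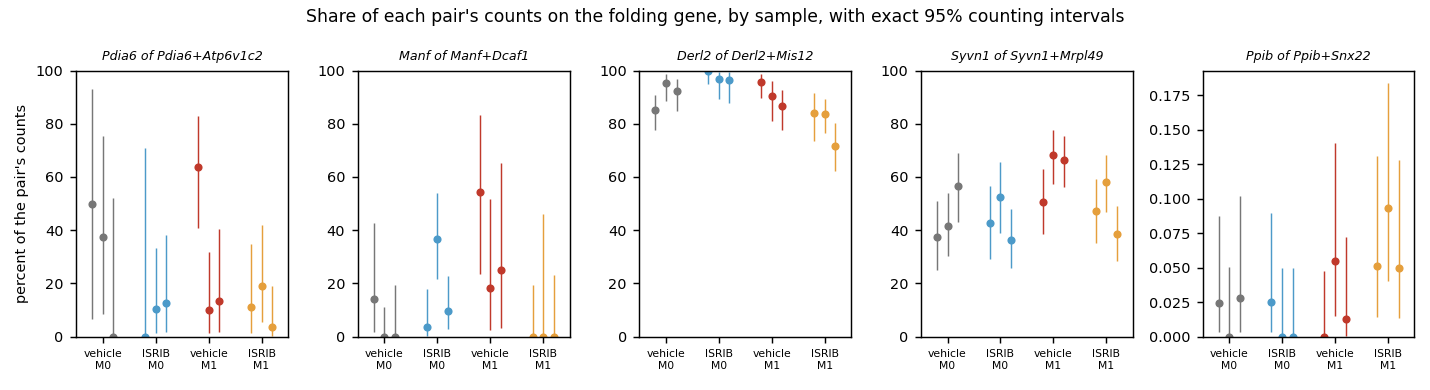
Percent of each pair's counts that carry the symbol of the folding or degradation gene, by sample, with exact 95% counting intervals. The axis runs from 0 to 100% except for Ppib, whose share never exceeds 0.0933%. Derl2 holds most of its pair in every sample, and its share is lowest in ISRIB M1.

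ISRIB itself was compared with vehicle in each state. Of the 7 tested members, 0 passed edgeR's test in M1 (0 of 2356 genes, 0%, and 5.69% at an unadjusted p under 0.05) and 0 in M0 (0%, and 6.07% unadjusted). At an unadjusted p under 0.05 there were 0 members in M1 and 1 in M0. In DESeq2's Wald test 0 genes in M1 and 3 in M0 passed, and 0 of the members. The interaction, which asks whether the M1 response differs with ISRIB, gave 0 of 7 members and 0 of all genes (7.09% unadjusted, and 0 in DESeq2's test). The widths of the intervals show what this depth could bear. For Snx22 the ISRIB effect was 0.02 (95% interval -0.17 to 0.21, log2) in M1 and 0.05 (-0.14 to 0.24) in M0. For Derl2 it was 0.01 (-0.51 to 0.52) and -0.46 (-0.98 to 0.06), and for Syvn1 -0.52 (-1.21 to 0.18) and -0.07 (-0.81 to 0.67). The intervals of Atp6v1c2, -0.79 to 1.81 in M1 and -0.02 to 2.94 in M0, span a change of several fold.

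Mis12 was the member with an unadjusted p under 0.05. It was lower with ISRIB than with vehicle in M0 in all libraries (log2 fold change -2.73, 95% interval -4.64 to -0.81, adjusted p = 0.503) and higher with ISRIB in M1 in all libraries (1.36, -0.17 to 2.89, adjusted p = 0.851). Groups without overlap were 11.3% of all tested genes in M0 and 11.6% in M1.

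The other genes of the pathway were read from lists of 42 folding genes, 24 degradation genes and 8 sensors and transcription factors, all of them in the table. Of the folding list, 9 had no count in any library, 22 had a mean under 1 count, and 10 could be tested. Of these 10, 5 rose and 0 fell from M0 to M1 with vehicle, and 5 rose and 0 fell with ISRIB, against the 44.8% of all genes given above. The median log2 fold change of the 10 was 1.76 with vehicle and 1.40 with ISRIB, against 0.01 and -0.01 over all genes. With Dnajb11 set against a floor of 3 counts per M0 library, the medians of the 10 were 1.62 and 1.40. A gene that passed the filter through its M1 counts alone had to be higher there. Dnajb11, Erp29 and P4hb reached the filter's minimum of 10 counts in M1 libraries only. Calr, Hspa5 and Pdia3 reached it in 2 M0 libraries each, fewer than a group holds, against 6, 6 and 4 M1 libraries. They too were thus tested through their M1 counts. The counts and medians of this list are therefore a description and support nothing about the list.

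Calr, the lectin chaperone calreticulin, had 13, 13 and 9 counts in M0 against 57, 28 and 51 in M1 with vehicle, and 8, 5 and 3 against 39, 21 and 21 with ISRIB. Every M1 library was above every M0 library. The log2 fold change was 2.35 (adjusted p = 0.000273) with vehicle and 2.61 (adjusted p = 0.000262) with ISRIB in edgeR's quasi-likelihood test, and it kept its call in each alternative that tested it. Calr entered the test through its M1 counts, so these p-values are a description. Hspa5, the chaperone BiP, had 20, 9 and 7 counts in M0 against 19, 15 and 62 in M1 with vehicle, and 4, 20 and 0 against 17, 42 and 32 with ISRIB, so that the groups overlapped in raw counts. Its log2 fold changes were 1.79 (adjusted p = 0.0389) and 2.21 (adjusted p = 0.0159). The vehicle call was lost with library totals alone, with the replicate number as a block, in limma on the deposited log2 values and without vehicle M0 replicate 2, vehicle M0 replicate 3 or vehicle M1 replicate 3, and the ISRIB call without ISRIB M0 replicate 1, ISRIB M0 replicate 3 or ISRIB M1 replicate 2.

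Dnajb11, a co-chaperone of BiP, was at 0 in the 6 M0 libraries and had 6, 0 and 14 counts with vehicle and 22, 2 and 12 with ISRIB in M1. Set against a floor of 3 counts per M0 library, its M1 mean was 2.86-fold higher with vehicle and 5.06-fold higher with ISRIB. These are not strict bounds, as the M1 libraries spread widely and vehicle M1 replicate 2 was at 0. The fitted changes, which do not use this floor, passed edgeR's quasi-likelihood test (adjusted p = 0.0123 and 0.00440). Erp29, a foldase relative without a disulfide-exchanging site, rose in both comparisons (2.23, adjusted p = 0.0313, and 3.44, adjusted p = 0.00298). Pdia3, which folds glycoproteins beside calreticulin, rose with vehicle (2.91, adjusted p = 0.0165), and with ISRIB its log2 fold change was 0.49 (adjusted p = 0.650). P4hb, the classical disulfide isomerase, rose with ISRIB (3.85, adjusted p = 0.0119) and with vehicle was 1.73 (adjusted p = 0.200). Of the folding genes averaging 50 counts or more, Sdf2 (0.37 with vehicle, adjusted p = 0.218) and Dnajc1 (0.26, adjusted p = 0.104) did not pass in either comparison, although Dnajc1 passed with vehicle under a minimum mean of 50 counts and in limma on the deposited log2 values. Erp29 was not called with vehicle without a filter on low counts or with library totals alone, and leaving out a compared library also ended some of these calls. With vehicle, Erp29 kept its call only without vehicle M0 replicate 3, and Pdia3 lost it without vehicle M0 replicate 2 or vehicle M1 replicate 3. Dnajb11 lost its vehicle call without vehicle M1 replicate 3 and in DESeq2's Wald test. With ISRIB, Erp29 and Dnajb11 kept theirs in all 6 fits, and P4hb lost it without ISRIB M0 replicate 3 or ISRIB M1 replicate 3. With vehicle the count of 5 fell to 3 with library totals alone, to 2 without vehicle M0 replicate 2 and to 1, Calr, without vehicle M1 replicate 3, and with ISRIB it was 3 without ISRIB M0 replicate 3.

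**Figure D5:**
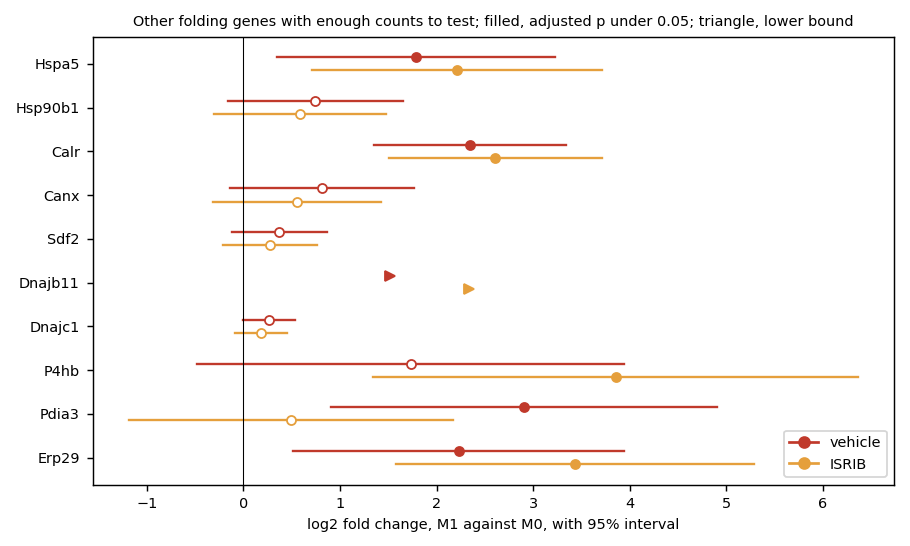
log2 fold changes from M0 to M1 of the 10 tested folding genes outside the pairs, with 95% intervals, for vehicle (red) and ISRIB (orange). Filled points have an adjusted p under 0.05. Triangles, titled lower bound, are the M1 mean of Dnajb11 over a floor of 3 counts, as its M0 libraries are at 0. The filled points lie above 0, among them Calr at 2.35 and 2.61.

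In the degradation list 10 of 24 genes had a mean under 1 count and 2, Rnf139 and Ubxn6, could be tested, and 0 passed in any comparison. Of the 8 sensors and factors only Creb3 could be tested, and it did not pass (-0.37 with vehicle and -0.26 with ISRIB, log2). In the comparisons of ISRIB with vehicle and in the interaction, 0 genes of these lists passed.

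The other folding, degradation and sensor genes also have opposite-strand neighbours, 18 genes of which 9 could be tested. Per kilobase of exon, the 21 list genes with such an overlap had a median of 1.26 CPM per kb and the 53 without it 0.503, and over all matched symbols the medians were 0.383 and 0 CPM per kb. Gba2, opposite Creb3, had the highest mean of the 9, and rose with ISRIB by 0.51 (log2, adjusted p = 0.0313), a call lost with library totals alone, without a filter on low counts, and without ISRIB M0 replicate 2, ISRIB M0 replicate 3, ISRIB M1 replicate 1 or ISRIB M1 replicate 3. The following 3 were named after their values were seen. Naa25, opposite Erp29 over 2210 exon bases, had 56, 32 and 40 counts in vehicle M0 and 0, 5 and 5 in vehicle M1. It fell by 3.24 on the log2 scale (adjusted p = 0.000553, edgeR's quasi-likelihood test), while Erp29 rose. With ISRIB it had 22, 35 and 30 counts in M0 and 3, 28 and 8 in M1. That change, -0.87, did not pass the same test (adjusted p = 0.253), but was called without ISRIB M1 replicate 2, the library with 28 counts. Erp29 rose with ISRIB too. A link between Naa25 and Erp29 was not tested. Htra2, opposite Aup1, rose by 1.73 with vehicle (adjusted p = 0.0135), and was not called without a filter on low counts or without vehicle M1 replicate 3. Chaf1a, opposite Ubxn6, fell by 2.09 with ISRIB (adjusted p = 0.0273), and was not called without ISRIB M0 replicate 3, ISRIB M1 replicate 2 or ISRIB M1 replicate 3. Naa25 and Chaf1a reached the filter's minimum in 6 M0 libraries each, and in 1 and 2 M1 libraries. Both were thus tested through their M0 counts, where they were high.

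For Snx22 and Derl2, whose means exceed 50 counts, the most alike patterns over the 12 samples were sought among 834 other genes, by the root mean square difference of centred log2 CPM. For Snx22 they were Zeb2, at 0.0655, and 9130221H12Rik, at 0.0772, against a median of 0.464 over the 834. For Derl2 they were Gm10785, at 0.214, and Rhoq, at 0.244, against a median of 0.532. All 4 have exons that overlap a gene on the opposite strand, as do the symbols that held 92.5% of the counts on matched symbols. The share of such genes among the 834 was not counted, so no likeness is read from it.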

How the data were processed

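Per the labels' protocols, polyadenylated RNA was made into strand-specific TruSeq libraries and sequenced on an Illumina NovaSeq. The authors deposited whole-number counts per gene symbol. They also deposited log2 values, which equal the log2 of the count over a size factor, plus 1, to a relative 3.56e-09 at most. FastQC, HTSeq, DESeq2 and mm10 are named per the submitters' processing notes. The aligner, the annotation and the strand setting are not given in the sources used here.

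Counts were fitted with edgeR 4.0.16 (R 4.3.3), filterByExpr (minimum count 10, minimum total 15), TMM scaling and a mean per group over all 12 samples, leaving 2356 genes with 97.6% of counts. The common biological coefficient of variation was 0.275. The quasi-likelihood test was used for 5 contrasts, with Benjamini-Hochberg adjustment over all tested genes and a threshold of 0.05, and the code was tested on simulated data. The 2 rows of a pair were added for the pair sums. Overlaps came from GENCODE M21, and promoters from RefSeq (GRCm38.p6), which matched 9 of 10 members. Alternatives used DESeq2 1.42.0, limma 3.58.1, other scalings, filters and sample sets, and a replicate block. The members and lists were chosen with earlier results of these data known. Named were the 10 members, list genes that passed a test or had a mean of at least 50 counts, neighbours with such a mean, and the 2 genes most alike to each well-counted member. No sample was left out.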

Additional observations from a re-analysis of the deposited data

Results flagged for a closer look

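Mis12 differed in opposite directions between ISRIB and vehicle libraries of the M0 and M1 groups, with every ISRIB library below every vehicle library in M0 and above every vehicle library in M1. The difference between the effects, tested as the interaction, was 4.09 on the log2 scale (95% interval 1.63 to 6.54, unadjusted p = 0.00209, adjusted p = 0.273, edgeR quasi-likelihood), so it did not pass the threshold. It rests on 4 counts in ISRIB M0, 29 in vehicle M0, 63 in ISRIB M1 and 23 in vehicle M1. Mis12 entered the test through its M1 counts, with 1 M0 library at the filter's minimum. Leaving out each library in turn gave 3.32 to 4.52.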

How the results depend on the processing

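Among all genes, a minimum mean of 50 counts left 836 genes to test. Of these 836, 530 (vehicle) and 523 (ISRIB) passed from M0 to M1, against 1055 of 2356 in each comparison of the main fit. Only Snx22 and Derl2 of the members have such a mean, and 1 member was called with vehicle. With library totals alone 1 member passed with ISRIB, and 1 (vehicle) and 2 (ISRIB) pair sums did. For ISRIB against vehicle in M0, DESeq2's Wald test called 3 genes and the fit without a filter 10, and for the interaction that fit called 9, with 0 members among them. The cause was not tested. Leaving out each replicate gave 935 to 989 genes (vehicle), 907 to 972 (ISRIB), 0 to 1 for ISRIB in M1, 0 to 4 in M0 and 0 to 4 for the interaction, with 2 to 3 members called in each M1 against M0 comparison, and 3 to 3 and 2 to 4 pair sums.

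Directions turned only for values that were not called. Mis12 with vehicle was -0.0235 without a filter, -0.22 with library totals alone and -0.38 to 0.83 without a replicate. With library totals alone Derl2 was -0.11, Mrpl49 -0.0400 and the sum of Mis12 and Derl2 -0.12 with vehicle. The ISRIB effect on Derl2 in M1 was -0.0166 in limma on the deposited values and -0.23 to 0.14 without a replicate. In M0 it ranged from -0.19 to 0.25 for Mrpl49, -0.25 to 0.15 for Syvn1 and -0.0384 to 0.12 for Snx22 without a replicate, and for the sum of Mrpl49 and Syvn1 it was -0.000617 with DESeq2 size factors and -0.00179 with library totals alone, and -0.13 to 0.0975 without a replicate. For the sum of Snx22 and Ppib it was -0.04 to 0.12. In M1 it ranged from -0.0458 to 0.24 for the sum of Atp6v1c2 and Pdia6 and from -0.12 to 0.58 for that of Dcaf1 and Manf. The interaction ranged from -0.23 to 0.54 for Dcaf1, -0.0974 to 0.0612 for Snx22, -0.0965 to 0.0651 for the sum of Snx22 and Ppib and -0.26 to 0.0130 for that of Mrpl49 and Syvn1.

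The main fit did not read the replicate numbers as pairing, because the labels do not say that they pair samples. Same-numbered samples did not deviate together beyond a correlation of 0.113, and not in every pair. As counting error also lowers such a correlation, it does not decide whether the numbers pair samples. The library names run in sequence over the 4 groups within each replicate number. Whether same-numbered samples were prepared together is not given. Every sample correlated best with its own number in ISRIB M1 against M0 and in the M0 comparison of ISRIB with vehicle, and 2 of 6 did in the others. The fit with the replicate block gave 3 genes for the interaction, -0.0325 for Mis12 with vehicle and -0.00650 for the ISRIB effect on the sum of Mrpl49 and Syvn1 in M0, and the sum of Dcaf1 and Manf was no longer called with ISRIB (-1.23, adjusted p = 0.0686). With the block Hspa5 was no longer called with vehicle, which left 4 of the 10 tested folding genes. Supt6, opposite a gene of these lists, was called with ISRIB in that fit, in DESeq2's Wald test and in limma on the deposited log2 values. It reached the filter's minimum in 0 M0 and 4 M1 libraries, so it was tested through its M1 counts, where it was high.

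Depth limits the rest: Pdia6, Manf and Ppib had under 3 counts per library on average, and intervals of Atp6v1c2, Dcaf1 and Mis12 span several fold.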
